A study of Mus musculus with 8 samples.

Results

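DNA replication and mitosis genes were followed by RNA sequencing in fibroblasts grown from mouse colon, in cultures with and without the transcription factor Zeb1. A total of 44 genes were chosen by symbol, 22 that act around S phase and 22 that act in G2 and mitosis. All 44 were among the 12963 genes with enough reads to be tested, out of 45321 genes in the annotation used. Adherent cultures were raised from mice with loxP-flanked Zeb1, and Cre recombinase was switched on in vitro to delete the gene. Fib-Ctrl cultures were Zeb1 flox/flox and Fib-ΔZeb1 cultures were Zeb1 del/del, with no other treatment named in the labels. The labels number 2 cultures in each group, line 1 and line 2 in what follows, and 2 replicate libraries of polyadenylated RNA came from each, so n = 4 libraries per group. The age of the animals, the Cre used in these cultures and the handling of Fib-Ctrl cultures at Cre induction are not stated in the labels or methods, so Zeb1 loss and Cre exposure cannot be told apart. The study also asked whether Zeb1 loss changes growth and senescence of colon fibroblasts in culture. In assays of cell growth and senescence staining it reports no major change in either. Comparing the groups addresses only the RNA of the genes that carry out the cell cycle.

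Libraries held 18852422 to 25540529 reads. Zeb1, the targeted gene, was at 94.7 ± 2.71 CPM (mean ± SD, n = 4; CPM are read counts relative to library size after TMM scaling) in Fib-Ctrl and at 14.3 ± 2.96 CPM in Fib-ΔZeb1, in keeping with the labels of all 8 libraries. Among the 10 fibroblast markers, collagens and Vim were the most abundant, whereas Fap was near 0. The summed level of these markers was 14859 to 19028 TPM (a scale of transcript share that corrects for length) in Fib-Ctrl and 7195 to 11209 TPM in Fib-ΔZeb1, and 3 of the 9 tested were lower there (Col1a1, Col1a2 and Pdgfrb). The 10 epithelial markers summed to 2.37 to 6.03 TPM in Fib-Ctrl and 25.8 to 191 TPM in Fib-ΔZeb1, with Krt18 the most abundant and Cldn3 at 0. Mesothelial markers summed to 0.0954 to 0.643 TPM against 1.41 to 7.77 TPM, of which Msln passed the test as higher, and smooth muscle markers to 378 to 641 TPM against 277 to 324 TPM, of which Cnn1 passed as lower. Endothelial markers summed to at most 1.39 TPM in any library, and glia and neuron markers to 3.43 to 13.4 TPM. Leukocyte markers summed to 22.7 and 10.7 TPM in replicates 1 and 2 of Fib-Ctrl line 1, and to 2.21 to 6.28 TPM in the other lines. The 10 most abundant genes made up 8.7% to 11.49% of a Fib-Ctrl library and 5.25% to 6.42% of a Fib-ΔZeb1 library. Xist was read only in Fib-ΔZeb1 line 1, which had no Ddx3y reads, whereas Fib-Ctrl line 1 showed the reverse. Lines that share the number 1 therefore did not come from 1 animal, and between them genotype cannot be told apart from sex or donor animal. How 2 replicates of 1 culture came apart is not in the labels, and the p-values over 8 libraries count both replicates of a line as independent.

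In a dividing fibroblast, licensing factors load the Mcm helicase onto DNA before S phase, the helicase is then activated, and the clamp Pcna and its loader Rfc tether polymerases while reductases and synthases supply nucleotides. Many of these genes are switched on by E2F transcription factors once cyclins and their kinases have inactivated the retinoblastoma proteins. Genes of G2 and mitosis come on later. Their promoters typically hold a cell-cycle homology region (CHR) bound by the MuvB complex and CCAAT boxes bound by NF-Y. RNA of both sets is low in resting fibroblasts and high in cycling ones, so that their level in bulk RNA rises with the share of cycling cells. More cycling cells and more RNA per cycling cell cannot be told apart in bulk samples.

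Promoter sequence from RefSeq (GRCm38.p6, 250 bases before to 50 bases after the start) was found for 35 of the 44 members, and Mcm4, Gins1, Gins2, Ccne2, Ccna2, Aurkb, Kif20a, Tpx2 and Foxm1 were not matched. An E2F-type motif (TTTCCCGC, TTTCGCGC, TTTGCCGC or TTTGGCGC, either strand) was found in 7 of 18 S-phase promoters (38.9%), in 1 of 17 G2/M promoters (5.88%) and in 3.32% of 16522 protein-coding genes with a promoter sequence. A CHR-type motif (TTTGAA or TTCGAA, either strand) was found in 3 of 18 S-phase promoters (16.7%), 13 of 17 G2/M promoters (76.5%) and 19.4% of all. CCAAT, on either strand, stood in 11 of 18 S-phase promoters (61.1%), 15 of 17 G2/M promoters (88.2%) and 42.1% of all. All 13 G2/M promoters with a CHR-type motif also held CCAAT, a combination present in 7.99% of all. When the search was kept to the 250 bases before the start, the CHR-type motif remained in 8 of 17 G2/M promoters (47.1%, against 17.7% of all), and in the other 5 the match reached past the start. Genes with several annotated starts counted once. A match is a description of the letters in these windows and was not tested as a binding site.

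The 120 bases before the start of 6 members are shown as examples of the layouts counted above, Mcm6 with E2F-type motifs, Cdk1, Cdc20 and Kif11 with CHR-type motifs and CCAAT, and Aurka and Rrm2 with CCAAT alone, with E2F-type motifs, CHR-type motifs and CCAAT in capitals. Neighbouring motifs can overlap, as the pair of E2F-type motifs on opposite strands does in Mcm6. Rrm2 held 1 CCAAT and no E2F-type or CHR-type motif in this window. Lack of an E2F-type motif was not particular to Rrm2, since only 5 of 18 S-phase promoters held one in the 250 bases before the start.
Mcm6 (chr1:128359706-128359825, minus strand): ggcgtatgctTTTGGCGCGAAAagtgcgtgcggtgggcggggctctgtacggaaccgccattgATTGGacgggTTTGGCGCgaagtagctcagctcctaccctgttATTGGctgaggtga
Cdk1 (chr10:69352913-69353032, minus strand): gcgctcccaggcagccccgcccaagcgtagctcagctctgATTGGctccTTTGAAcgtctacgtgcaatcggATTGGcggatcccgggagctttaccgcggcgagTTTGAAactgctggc
Cdc20 (chr4:118437344-118437463, minus strand): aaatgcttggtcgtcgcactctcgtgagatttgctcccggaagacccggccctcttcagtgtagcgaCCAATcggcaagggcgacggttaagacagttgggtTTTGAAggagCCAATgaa
Aurka (chr2:172370571-172370690, minus strand): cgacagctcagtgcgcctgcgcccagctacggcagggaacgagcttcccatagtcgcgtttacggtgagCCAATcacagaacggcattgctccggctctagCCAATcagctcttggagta
Kif11 (chr19:37376262-37376381, plus strand): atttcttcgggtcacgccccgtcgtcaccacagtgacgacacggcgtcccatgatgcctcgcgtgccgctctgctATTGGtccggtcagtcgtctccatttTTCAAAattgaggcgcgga
Rrm2 (chr12:24708134-24708253, plus strand): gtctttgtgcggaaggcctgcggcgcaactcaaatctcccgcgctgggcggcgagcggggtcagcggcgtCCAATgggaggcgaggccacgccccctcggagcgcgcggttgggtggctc

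Summed RNA of both sets was higher without Zeb1. The 22 S-phase members summed to 939, 1231, 1306 and 1536 TPM in Fib-Ctrl and to 1546, 2125, 1705 and 1908 TPM in Fib-ΔZeb1 (throughout, values run line 1 replicate 1, line 1 replicate 2, line 2 replicate 1 and line 2 replicate 2). On the TPM scale the groups did not overlap, although the highest Fib-Ctrl library and the lowest Fib-ΔZeb1 library were almost level. Means were 1253 ± 246 and 1821 ± 251.1 TPM (SD, n = 4), a ratio of 1.45. The 22 G2/M members summed to 1132, 1637, 1428 and 1657 TPM in Fib-Ctrl against 1898, 2420, 2260.5 and 2464 TPM in Fib-ΔZeb1. The lowest Fib-ΔZeb1 library was above every Fib-Ctrl library, with means of 1463 ± 244 and 2261 ± 257 TPM and a ratio of 1.54. The G2/M sum was 1.18 ± 0.12 times the S-phase sum in Fib-Ctrl and 1.25 ± 0.08 times in Fib-ΔZeb1, a difference smaller than 1 SD. On the CPM scale the ratios were 1.25 for S-phase and 1.32 for G2/M members. Summed CPM overlapped between groups for both sets, with Fib-Ctrl line 2 replicate 2 above Fib-ΔZeb1 line 1 replicate 1. As log2 CPM minus each gene's mean, averaged over S-phase members, Fib-Ctrl line 2 replicate 2 stood at 0.119. Replicate 1 of Fib-ΔZeb1 line 1 and of line 2 stood at -0.053 and 0.086. No test was run on these sums.

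**Figure D1:**
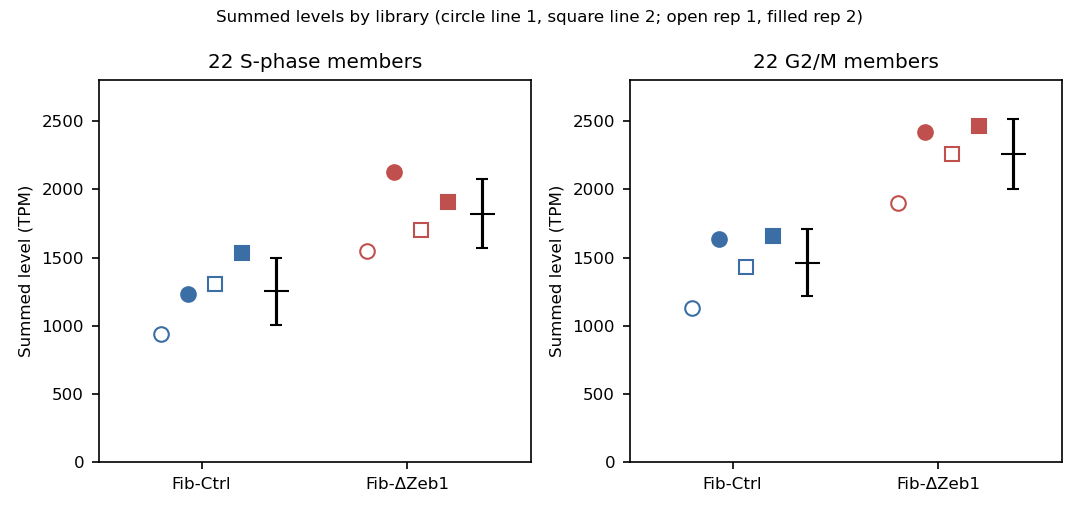
Summed level of the 22 S-phase members (left) and the 22 G2/M members (right) in TPM for each of the 8 libraries, with circles for line 1, squares for line 2, open symbols for replicate 1 and filled symbols for replicate 2. Black marks give the mean ± SD of 4 libraries, 1253 ± 246 against 1821 ± 251.1 TPM on the left and 1463 ± 244 against 2261 ± 257 TPM on the right, and every replicate 2 lies above replicate 1 of its line.

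Per gene, 5 of 22 S-phase members and 4 of 22 G2/M members were higher in Fib-ΔZeb1 at an adjusted p under 0.05, and no member was lower, by edgeR's quasi-likelihood test with Benjamini-Hochberg adjustment over all 12963 genes. Across all genes tested, 7.54% were called higher and 8.65% lower, and the 9 members called were all higher. When reads were scaled by library size alone, 2272 genes were called higher and 719 lower, against 978 and 1121 here. At an unadjusted p under 0.05, 26 members were higher and 0 lower, where 16% of all genes were higher. DESeq2 called 19 members higher and 0 lower, where it called 11.9% of all genes higher. The median log2 fold change was 0.50 for S-phase and 0.47 for G2/M members, against -0.005 over all genes tested, and 40 of 44 members had a positive estimate, against 49.6% of all genes. In 13 of 44 members (7 S-phase, 6 G2/M) every Fib-ΔZeb1 library lay above every Fib-Ctrl library, a pattern seen in 12% of all genes tested, and in none did they all lie below. Of all 12963 genes tested, 1550 lay above in this way and 1598 below. With reads summed per line, so that each of the 4 cultures counts once, edgeR called 0 members (18 at an unadjusted p under 0.05). That fit called 0.0694% of all genes higher. Limma-voom with a correlation estimated within lines called 0 (10 unadjusted), where 0.879% of all genes were called higher. Unadjusted shares over all genes were not counted for these fits. Leaving out a library also moved the count of 9. It became 2 without replicate 1 of either Fib-Ctrl line, 1 without replicate 2 of either Fib-ΔZeb1 line and 5 without replicate 1 of Fib-ΔZeb1 line 2, while the medians stayed between 0.36 and 0.64 for S-phase and between 0.36 and 0.57 for G2/M members. In the same order, these fits called 4.85% and 4.31%, 4.59% and 3.61%, and 4.71% of all genes higher. The remaining left-out fits called 5.03%, 5.19% and 7.65%, and their member counts lie in the range given at the end.

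**Figure D2:**
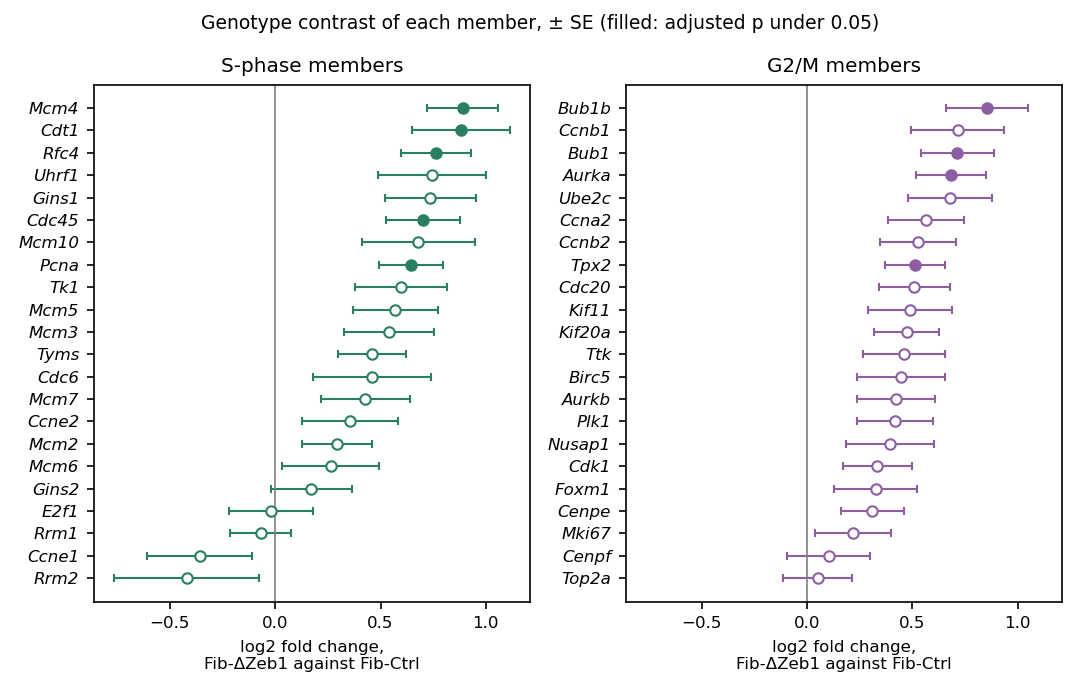
Log2 fold change of Fib-ΔZeb1 against Fib-Ctrl (x axis) for each S-phase member (left) and G2/M member (right), with the standard error, filled where the adjusted p was under 0.05. Estimates run from -0.42 for Rrm2 to 0.89 for Mcm4 among S-phase members and from 0.05 for Top2a to 0.86 for Bub1b among G2/M members.

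Among S-phase members, Mcm4 and Cdt1 had the largest estimates, while those of other helicase and licensing genes ranged widely. Mcm4, a subunit of the ring-shaped replicative helicase, had 71.0, 104, 103 and 119 CPM in Fib-Ctrl and 162, 209.7, 168 and 198 CPM in Fib-ΔZeb1. All Fib-ΔZeb1 libraries were above all Fib-Ctrl libraries, and the difference was 0.89 ± 0.17 (log2 fold change ± SE, adjusted p = 0.0111). It was called in all 8 fits that left out 1 library, which held for no other member, and in 17 of 19 alternatives, the exceptions being the summed and the within-line fits. Cdt1, which loads the helicase onto origins, had 18.0, 25.9, 30.6 and 38.9 CPM in Fib-Ctrl and 40.8, 57.1, 49.3 and 61.7 CPM in Fib-ΔZeb1, without overlap, a log2 difference of 0.88 ± 0.23 (adjusted p = 0.0365). Cdc45, a cofactor that activates the helicase, had 15.1, 20.6, 18.1 and 22 CPM against 23.6, 37.9, 29.5 and 32.3 CPM, also without overlap (0.70 ± 0.18, adjusted p = 0.0305). The other helicase subunits had positive estimates that did not pass, namely Mcm2 (0.29), Mcm3 (0.54), Mcm5 (0.57), Mcm6 (0.26) and Mcm7 (0.43). The same held for the loader Cdc6 (0.46), the helicase cofactors Gins1 (0.74, adjusted p = 0.0513) and Gins2 (0.17) and the initiation factor Mcm10 (0.68). For Gins1 the groups nevertheless did not overlap, with 5.18, 7.36, 4.6 and 4.96 CPM in Fib-Ctrl and 7.73, 11.3, 8.02 and 9.76 CPM in Fib-ΔZeb1.

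At the replication fork, Pcna, the sliding clamp, had 119, 157, 122 and 137 CPM in Fib-Ctrl and 168, 258, 194 and 217 CPM in Fib-ΔZeb1. No Fib-Ctrl library reached the lowest Fib-ΔZeb1 library, and the log2 difference was 0.65 ± 0.15 (adjusted p = 0.0250). Rfc4, a subunit of the clamp loader, stood at 9.39, 12.8, 8.33 and 11.2 CPM against 17.3, 19.9, 15.4 and 18.2 CPM. These groups did not overlap (0.76 ± 0.17, adjusted p = 0.0192), and Rfc4 was called in 5 of the 8 fits without 1 library. Uhrf1, which recruits the maintenance DNA methyltransferase to new strands, had a similar estimate of 0.74 ± 0.26 but overlapping groups (adjusted p = 0.0790).

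Nucleotide supply was mixed. Tyms, thymidylate synthase, did not overlap between groups, at 34.2 to 50.9 CPM in Fib-Ctrl and 51.9 to 74.6 CPM in Fib-ΔZeb1, with a log2 difference of 0.46 (adjusted p = 0.0859). Tk1, thymidine kinase, had 0.60 (adjusted p = 0.0941). Both subunits of ribonucleotide reductase had negative estimates, -0.07 ± 0.15 for Rrm1 and -0.42 ± 0.35 for Rrm2, neither past the test (adjusted p = 0.783 and 0.438). The sign of Rrm1 is not settled, since it was 0.11 when reads were scaled by library size alone. Of the S-phase regulators, the cyclin genes Ccne1 and Ccne2 had estimates of -0.36 and 0.36, and the transcription factor gene E2f1 one of -0.02, which was 0.16 under library size alone; none of these passed.

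Among G2/M members the spindle checkpoint kinases Bub1 and Bub1b, which hold back anaphase until chromosomes are attached, were higher in Fib-ΔZeb1. Bub1b had 61.0, 101, 54.6 and 67.6 CPM in Fib-Ctrl and 111, 138, 120.4 and 144 CPM in Fib-ΔZeb1, a difference of 0.86 ± 0.19 (adjusted p = 0.0222). Bub1 had 32.3, 49.9, 36.8 and 41.2 CPM against 52.6, 75.6, 58.8 and 75.6 CPM (0.71 ± 0.17, adjusted p = 0.0272). Neither gene overlapped between groups, although Fib-Ctrl line 1 replicate 2 came close to the lowest Fib-ΔZeb1 library for both. Aurka, the kinase of spindle poles, had 35.1, 50.7, 48.6 and 56.4 CPM in Fib-Ctrl and 63.1, 89.3, 73.5 and 80.8 CPM in Fib-ΔZeb1 without overlap (0.68 ± 0.17, adjusted p = 0.0271). Tpx2, which activates Aurka on the spindle, had 107, 152, 126 and 148 CPM against 156, 200.1, 193 and 209.8 CPM. Its lowest Fib-ΔZeb1 value was just above the highest Fib-Ctrl value (0.51 ± 0.14, adjusted p = 0.0434), and it did not pass without the expression filter (adjusted p = 0.0580).

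The remaining 18 G2/M members had positive estimates that did not pass. Ccnb1, Ccnb2 and Ccna2, cyclins of mitosis and of S phase to G2, had 0.72, 0.53 and 0.56, and their kinase gene Cdk1 had 0.33. The anaphase-promoting complex partners Ube2c and Cdc20 had 0.68 and 0.51. The mitotic kinases Plk1, Aurkb and Ttk had 0.42, 0.42 and 0.46, and Birc5, a partner of Aurkb, had 0.45. The motor proteins Kif11, Kif20a and Cenpe had 0.49, 0.47 and 0.31, the spindle protein Nusap1 had 0.39 and the transcription factor Foxm1 had 0.33. Groups did not overlap for Ccnb2 and Kif20a. The estimates nearest 0 belonged to Mki67 (0.22 ± 0.18), the gene of the Ki-67 proliferation marker, Cenpf (0.10 ± 0.20), a kinetochore protein, and Top2a (0.05 ± 0.16), the topoisomerase that untangles chromosomes. Top2a had 247, 391, 321 and 406 CPM in Fib-Ctrl and 322, 405, 332 and 356 CPM in Fib-ΔZeb1, and Mki67 179, 255, 228 and 275 CPM against 218, 233, 327 and 313 CPM. Both overlapped broadly. Without Fib-Ctrl line 1 replicate 1 the estimates of Top2a and Cenpf were -0.08 and -0.06.

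Libraries differed among themselves within each group too. Over the 8 libraries a member's highest value was 1.49 to 3.59 times its lowest (median 2.26). Fib-Ctrl line 1 replicate 1 was the lowest library for 37 of 44 members (18 S-phase, 19 G2/M). The highest values were shared between Fib-ΔZeb1 line 1 replicate 2 (14 S-phase, 7 G2/M members) and Fib-ΔZeb1 line 2 replicate 2 (4 S-phase, 11 G2/M members). Mean levels over all libraries spanned 12.5 TPM for Cdc6 to 232 TPM for Pcna among S-phase members, and 15.1 TPM for Cenpf to 281 TPM for Cdk1 among G2/M members.

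**Figure D3:**
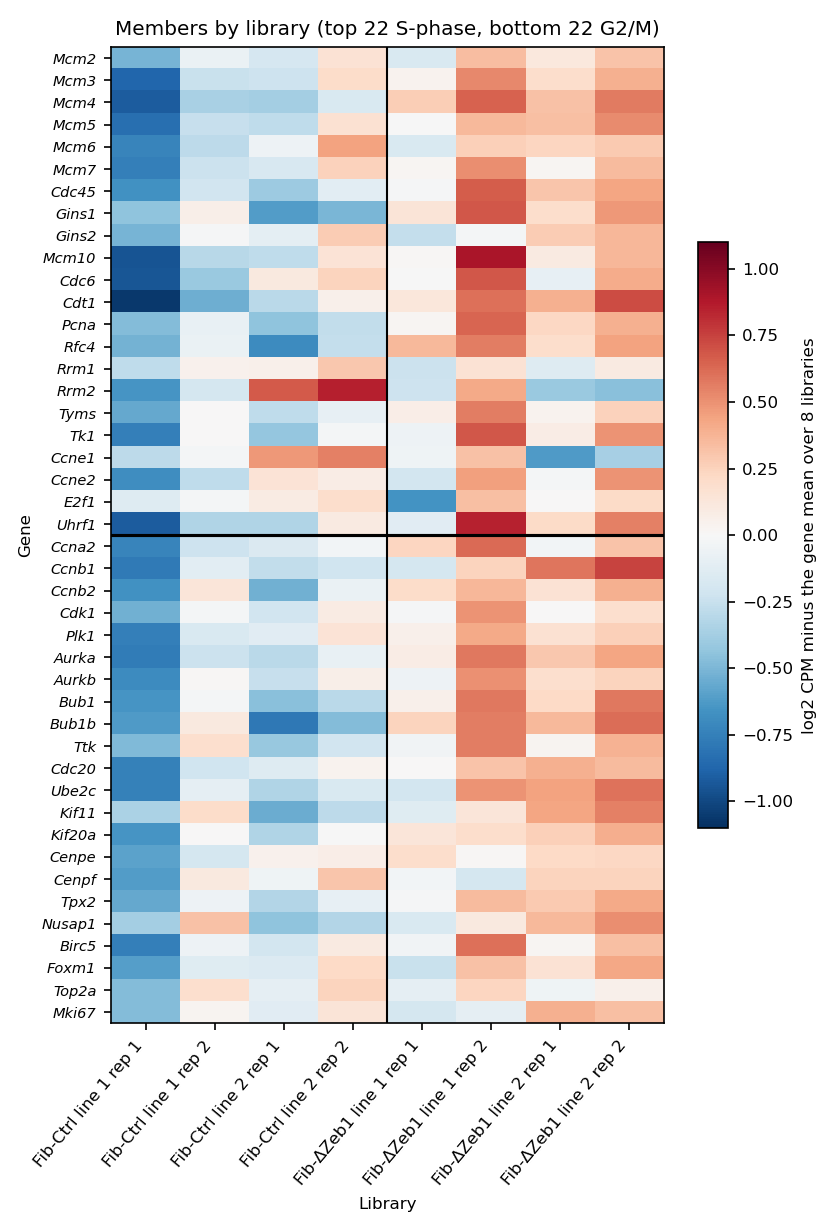
Level of each of the 44 members (y axis, S-phase above the line, G2/M below) in each of the 8 libraries (x axis), as log2 CPM minus the gene's mean over libraries. Fib-Ctrl line 1 replicate 1, at the left, is the lowest library for 37 of 44 members, and Rrm2 and Ccne1 stand out with their highest values in Fib-Ctrl line 2.

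Replicate 2 of a line held more RNA of nearly every member than replicate 1. It was higher in all 4 lines for 38 of 44 members (20 S-phase, 18 G2/M), against 15.1% of all genes tested, and in at least 3 lines for 43, the exception being Cenpf. The median log2 ratio of replicate 2 to replicate 1 over the 44 members was 0.53 in Fib-Ctrl line 1, 0.27 in Fib-Ctrl line 2, 0.49 in Fib-ΔZeb1 line 1 and 0.20 in Fib-ΔZeb1 line 2. In a fit with a mean for each line and a term for replicate number, all 44 members had a positive estimate with a median of 0.36, against -0.01 over all genes tested. Adjusted over all genes, edgeR called 0 of 44 members (lowest adjusted p = 0.0935), where 0.0231% of all genes, 3 in number, were called. At an unadjusted p under 0.05 40 members were higher, against 9.58% of all genes, and DESeq2 called 28 higher, against 2.35%. Further replication genes moved with them in all 4 lines in 33 of 47 cases and further mitosis genes in 50 of 60. Of the 9 fibroblast markers tested, 1 was higher and 6 were lower in replicate 2 of all 4 lines. Among all 12963 genes tested, replicate 2 was higher in all 4 lines for 1957 and in none of them for 2050. Neither labels nor methods state what set replicate 2 apart from replicate 1. With replicate number as a term in the genotype fit, 18 of 44 members were called, against 9 without it. Of all genes, 7.1% were called higher with the term and 7.54% without it.

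**Figure D4:**
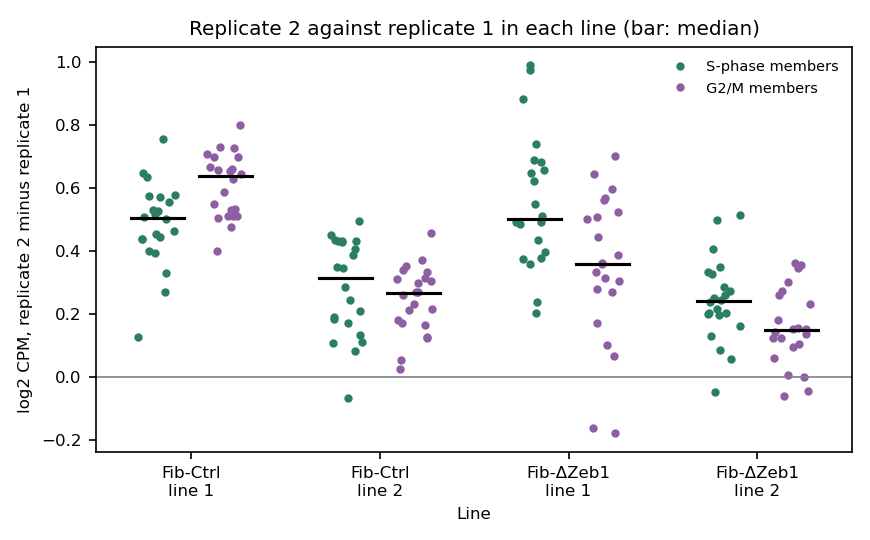
Log2 CPM of replicate 2 minus replicate 1 (y axis) for each member in each of the 4 lines (x axis), S-phase in green, G2/M in purple, with the median as a bar. Medians over all 44 members are 0.53, 0.27, 0.49 and 0.20 from left to right, and 38 members lie above 0 in all 4 lines.

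Estimates were positive for 42 of 44 members between the lines numbered 1 and for 39 of 44 between the lines numbered 2. The lines numbered 1 also differed in Xist and Ddx3y, so that genotype cannot be told apart there from sex or donor animal. Between the lines numbered 1, 11 members were higher in Fib-ΔZeb1 and 0 lower (also 0 lower at an unadjusted p under 0.05 and by DESeq2), where 13.6% of all genes were called higher. Of these, 6 act around S phase. Cdt1 had a log2 difference of 1.16 ± 0.24 (adjusted p = 0.0137), Mcm4 1.08 ± 0.21 (adjusted p = 0.0106) and Rfc4 0.75 ± 0.22 (adjusted p = 0.0431). Mcm10 had 11.4, 17.8, 18.2 and 24.5 CPM in Fib-Ctrl and 22.2, 41.0, 23.5 and 28.4 CPM in Fib-ΔZeb1, a line 1 difference of 1.12 ± 0.33 (adjusted p = 0.0434). Fib-ΔZeb1 line 1 replicate 2 was far above the other libraries for this gene. Cdc6 had 10.4, 15.1, 21.6 and 23.7 CPM against 19.9, 32.1, 18.8 and 26.5 CPM and differed by 1.03 ± 0.29 between the lines numbered 1 (adjusted p = 0.0352), but by 0.00 ± 0.28 between the lines numbered 2. Mcm3 had 61.9, 96.0, 96.7 and 130.2 CPM against 116, 163, 129.9 and 149 CPM, with 0.83 ± 0.25 in line 1 (adjusted p = 0.0483).

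The G2/M members called between the lines numbered 1 were Ccna2, Aurka, Plk1, Cdc20 and Cenpe. Ccna2 had 82.4, 117, 123 and 134 CPM in Fib-Ctrl and 160.4, 209.8, 134 and 169.8 CPM in Fib-ΔZeb1. Line 1 differed by 0.89 ± 0.21 (adjusted p = 0.0194) and line 2 by 0.24. Plk1, a kinase needed from mitotic entry to cell division, had 58.3, 87.4, 90.2 and 109 CPM against 102, 131, 110.1 and 117 CPM (0.68 ± 0.21 in line 1, adjusted p = 0.0488). Cdc20, an activator of the anaphase-promoting complex, had 54.4, 78.4, 82.9 and 93.8 CPM against 91.7, 113, 119.9 and 116 CPM (0.63 ± 0.18 in line 1, adjusted p = 0.0419). In Cenpe, a kinetochore motor, 65.2, 85.9, 102 and 103 CPM stood against 112, 99.1, 115 and 115 CPM (0.48 ± 0.14 in line 1, adjusted p = 0.0396). Aurka differed by 0.83 ± 0.22 (adjusted p = 0.0288). For each of these 5 genes Fib-Ctrl line 1 replicate 1 was the lowest of all libraries, and without it 0 of the 44 members were called between the lines numbered 1. The count was 3 without either Fib-Ctrl line 2 library, 24 without Fib-ΔZeb1 line 1 replicate 1, 4 without Fib-ΔZeb1 line 1 replicate 2, 5 without Fib-ΔZeb1 line 2 replicate 1 and 4 without Fib-ΔZeb1 line 2 replicate 2. Of all genes, 5.3% were called higher without Fib-Ctrl line 1 replicate 1 and 16.6% without Fib-ΔZeb1 line 1 replicate 1, the lowest and highest shares.

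Between the lines numbered 2, 7 of 44 members were higher and 2 lower, where 14.1% of all genes were called higher and 14.6% lower. The share of members called higher was thus close to that over all genes, and the share called lower was smaller. Bub1b led with 1.11 ± 0.25 (adjusted p = 0.0149). Ccnb1, the cyclin of mitotic entry, had 64.3, 101, 91.0 and 94.4 CPM in Fib-Ctrl and 96.0, 130.4, 166 and 184 CPM in Fib-ΔZeb1. Both Fib-ΔZeb1 line 2 libraries were above all others, with a line 2 difference of 0.92 ± 0.23 (adjusted p = 0.0219). Kif11, the motor that pushes spindle poles apart, had 80.2, 117, 69.7 and 83.4 CPM against 92.7, 112, 138 and 149.9 CPM. It differed by 0.91 ± 0.19 in line 2 (adjusted p = 0.0132) and by 0.05 ± 0.19 in line 1. Nusap1, which bundles spindle microtubules, had 37.6, 61.0, 35.9 and 39.1 CPM against 43.4, 52.6, 62.5 and 69.5 CPM, with Fib-Ctrl line 1 replicate 2 among the high libraries (0.82 ± 0.22 in line 2, adjusted p = 0.0303, and -0.04 in line 1). Of the S-phase members, Gins1 differed by 0.90 ± 0.28 (adjusted p = 0.0479), Rfc4 by 0.78 ± 0.22 (adjusted p = 0.0371) and Mcm4 by 0.72 ± 0.21 (adjusted p = 0.0392). Mcm4 and Rfc4 were thus called between both pairs of lines. Leaving out a library moved the count of 9 to 2 (either Fib-Ctrl line 2 library), 16 (either Fib-ΔZeb1 line 1 library), 3 (Fib-ΔZeb1 line 2 replicate 1) and 1 (Fib-ΔZeb1 line 2 replicate 2). These counts take both directions. Of all genes, 17.6% were called higher without Fib-ΔZeb1 line 1 replicate 1 and 4.97% without Fib-ΔZeb1 line 2 replicate 2, the highest and lowest shares. In these 2 fits 2327 and 655 genes were called higher, and 2455 and 563 lower.

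Rrm2 and Ccne1 went the other way. Rrm2, the subunit of ribonucleotide reductase whose level follows S phase, had 114, 157, 285 and 324 CPM in Fib-Ctrl and 153, 239, 135 and 130.0 CPM in Fib-ΔZeb1. Both Fib-Ctrl line 2 libraries stood above all others, the next being Fib-ΔZeb1 line 1 replicate 2. The log2 difference of Fib-ΔZeb1 against Fib-Ctrl was -1.20 ± 0.23 between the lines numbered 2 (adjusted p = 0.00897) and 0.54 ± 0.23 between the lines numbered 1 (adjusted p = 0.120), and the difference of these differences was -1.74 ± 0.32 (adjusted p = 0.0141). Ccne1, the cyclin that starts S phase with Cdk2, had 32.6, 39.2, 55.2 and 58.4 CPM against 38.4, 49.7, 25.7 and 30.8 CPM. Its highest values were again in Fib-Ctrl line 2 and its lowest in Fib-ΔZeb1 line 2 replicate 1. The log2 difference was -1.0 ± 0.17 in line 2 (adjusted p = 0.00567) and 0.30 ± 0.17 in line 1 (adjusted p = 0.224), with a difference between line numbers of -1.30 ± 0.24 (adjusted p = 0.0132). They were the only 2 of 44 members called in that test, which called 15.3% of all genes in either direction, and the count was 0 without Fib-Ctrl line 2 replicate 2, 0 without Fib-ΔZeb1 line 2 replicate 1 and 1 without Fib-ΔZeb1 line 2 replicate 2. Nothing in the labels pairs the lines that share a number, so this is a difference among the 4 lines.

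**Figure D5:**
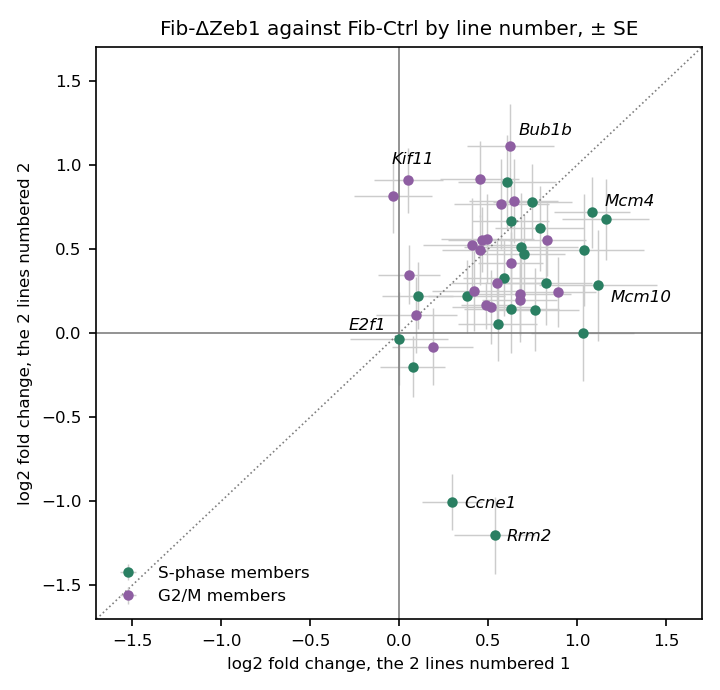
Log2 fold change of Fib-ΔZeb1 against Fib-Ctrl with its standard error for each member, between the lines numbered 1 (x axis) and between the lines numbered 2 (y axis), S-phase in green and G2/M in purple, with equality as a dotted line. Most members lie in the upper right, while Ccne1 and Rrm2 are at -1.0 and -1.20 on the y axis.

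Lines of 1 genotype were also compared. In Fib-Ctrl, line 2 was higher than line 1 for Rrm2 (1.17 ± 0.23, adjusted p = 0.0161) and Ccne1 (0.66 ± 0.17, adjusted p = 0.0357) and for no other member, where 8.32% of all genes were called higher. The median log2 difference between Fib-Ctrl lines was 0.41 for S-phase and 0.19 for G2/M members. That count of 2 was 0 without Fib-Ctrl line 1 replicate 1 or either library of Fib-Ctrl line 2, 4 without either Fib-ΔZeb1 line 1 library and 1 without either Fib-ΔZeb1 line 2 library. In Fib-ΔZeb1 edgeR called 0 of 44 members between lines (5 at an unadjusted p under 0.05, 1 by DESeq2), where 6.87% of all genes were called in either direction. Without Fib-ΔZeb1 line 1 replicate 1 the count was 2 and without Fib-ΔZeb1 line 1 replicate 2 it was 1. The medians were -0.03 for S-phase and 0.10 for G2/M members. The spread among Fib-Ctrl lines in S-phase genes, 0.41, stands beside the median genotype difference of 0.50.

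Further genes of the same processes were counted between genotypes, where 7.54% of all genes tested were called higher and 8.65% lower. Of 47 other replication genes, 10 were higher, 0 lower and 37 did not pass, with a median log2 difference of 0.37 and 4 negative estimates. Among the latter Orc3, of the origin recognition complex, named after its values were seen, lay below Fib-Ctrl in every Fib-ΔZeb1 library (-0.25 ± 0.09, adjusted p = 0.0939). The largest differences were in Shmt1, an enzyme of folate metabolism that feeds thymidylate synthesis (0.95 ± 0.25, adjusted p = 0.0341), Dut, which removes dUTP (0.91 ± 0.16, adjusted p = 0.00903), and Orc6, also of that complex (0.82 ± 0.13, adjusted p = 0.00654). Of 60 other mitosis genes, 19 were higher, 0 lower and 41 did not pass, with a median of 0.49 and 6 negative estimates. Cdc25b, the phosphatase that activates Cdk1, differed most (1.17 ± 0.19, adjusted p = 0.00695), followed by Dlgap5, a spindle protein (1.04 ± 0.22, adjusted p = 0.0163), and Lmnb1, lamin B1 (0.86 ± 0.15, adjusted p = 0.00900). Orc6, Dut, Shmt1, Cdc25b, Dlgap5 and Lmnb1 did not overlap between groups.

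The regulators upstream were less uniform. Of 19 E2F, Rb and MuvB genes, 3 were higher and 1 lower, against 7.54% and 8.65% of all genes, with a median of 0.15. Mybl2, which joins MuvB to switch on G2/M genes, had 18.3, 24.1, 27.1 and 26.1 CPM in Fib-Ctrl and 35.2, 62.9, 50.1 and 54.8 CPM in Fib-ΔZeb1. It did not overlap (1.09 ± 0.20, adjusted p = 0.00946). Rbbp4, a histone-binding subunit of MuvB, and E2f4, an E2F that mostly represses in resting cells, were also higher (0.48 ± 0.11 and 0.43 ± 0.12, adjusted p = 0.0242 and 0.0416). Rb1, the retinoblastoma gene, was lower, at 14.7, 11.5, 14.2 and 15.3 CPM against 10.6, 8.25, 8.43 and 8.41 CPM (-0.64 ± 0.16, adjusted p = 0.0278).

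Of 13 genes of D-type cyclins, their kinases and CDK inhibitors, 2 were higher and 0 lower, against 7.54% and 8.65% of all genes. Cdk6, a kinase that phosphorylates retinoblastoma proteins, had 0.71 ± 0.17 (adjusted p = 0.0243). Cdkn2a, the gene of the inhibitors p16 and p19Arf, had 89.3, 65.9, 59.9 and 61.1 CPM in Fib-Ctrl and 97.1, 119, 188 and 224 CPM in Fib-ΔZeb1, without overlap (1.19 ± 0.27, adjusted p = 0.0223). Cdkn1a, the gene of p21, had 168, 191, 416 and 372 CPM against 257, 127, 87.4 and 29.1 CPM, which overlapped and did not pass (-1.20 ± 0.59, adjusted p = 0.196). It was singled out after its values were seen. Its line contrasts differed, at -2.76 ± 0.52 in line 2 (adjusted p = 0.00829) and 0.10 ± 0.48 in line 1, with a difference of -2.86 ± 0.70 (adjusted p = 0.0341). Cdkn1a was not alone in this. Of the 13 genes, 4 passed the difference test with a positive value and 3 with a negative one, where 15.3% of all genes passed. Fibroblast and smooth muscle marker sums were lower in Fib-ΔZeb1 and epithelial and mesothelial marker sums higher, as given above, and their part in the results was not tested.

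Salmon shares reads among the transcripts of a gene, and for 32 of 44 members the leading transcript took over 70% of the gene's TPM in every library, 9 of them having 1 transcript. The leading transcript was a retained-intron form for Gins2 and a form marked for nonsense-mediated decay for Tyms. Its share did not overlap between groups for 3 of the 35 members with several transcripts, a pattern seen in 4.51% of 9110 tested genes with several transcripts. Gins2-204 took 64.5% to 68.0% in Fib-Ctrl and 69.3% to 78.2% in Fib-ΔZeb1. Cdc45-201 took 89.7% to 100% against 79.8% to 86.8%, and Nusap1-202 took 96.7% to 96.9% against 91.0% to 94.1%. No test was run on these shares. A total of 10 members overlap another expressed gene, in every case on the other strand, as Rfc4 does with Eif4a2 and Cdc45 with Ufd1. No source states the strand setting of the counting, so the values of Mcm7, Cdc45, Gins2, Rfc4, Tk1, Ccne2, Ccna2, Cdc20, Kif20a and Nusap1 are less certain. The processed copies Ccnb1-ps and Pcna-ps2 held at most 23 and 92 reads per library, against at least 1404 for Ccnb1 and 2092 for Pcna.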

How the data were processed

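RNA was measured in 4 Fib-Ctrl and 4 Fib-ΔZeb1 libraries of polyadenylated RNA from cultured mouse colon fibroblasts. The authors used the nf-core RNA-seq pipeline, with STAR for alignment (GRCm38) and Salmon for quantification; their versions and the strand setting were not given in the sources used here. The deposited tables hold estimated counts per transcript, not normalized, and TPM as Salmon computed it. The authors tested genotypes with DESeq2, and that table was not used.

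Estimated counts were summed to genes with GENCODE M21, which matched 108214 of 109617 transcripts (98.72%), and rounded. The unmatched transcripts held 0.262% to 0.303% of reads and were left out. Genes were filtered by genotype (edgeR's filterByExpr), scaled by TMM and tested with edgeR 4.0.16 (quasi-likelihood, R 4.3.3), genotype being the single term, with Benjamini-Hochberg adjustment at 0.05. Fits with 4 line means gave the contrasts by line and the replicate contrast. CPM carry TMM scaling. Standard errors come from the coefficient and its F statistic. The fits were tested on simulated counts. No library equalled another, and each pair of replicates differed beyond sampling noise. DESeq2 1.42.0, limma 3.58.1, other scalings, filters, blocks and left-out libraries were the alternatives. Motifs were searched in RefSeq promoters with Python 3.11.15. Counts per gene of 79 reads or more in every library back each member.

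The 44 members and all lists were chosen with earlier results of these data known. All members are named, and values per library are given for members past the test in any contrast, at most 6 per list and contrast by size of change, or else for the 4 of highest mean TPM. Up to 3 genes per direction are named from the other lists. Nothing says whether replicates came from separate cultures, so p-values measure the spread between these libraries, which may be technical.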

Additional observations from a re-analysis of the deposited data

Results flagged for a closer look

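Rrm2 and Ccne1 differed in their genotype contrast between line numbers, by -1.74 and -1.30 on the log2 scale (line 2 minus line 1, tested as a contrast of 4 line means in edgeR, adjusted p = 0.0141 and 0.0132).

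In 92 groups of 4 libraries (44 members and both summed levels in each genotype), 3 held a library far from the other three, where chance flags about 1 in 20 groups. Nusap1 had its highest Fib-Ctrl value, 61.0 CPM, in line 1 replicate 2. Mcm6 had its lowest Fib-ΔZeb1 value, 118 CPM, in line 1 replicate 1. Cenpe had its lowest Fib-ΔZeb1 value, 99.1 CPM, in line 1 replicate 2.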

How the results depend on the processing

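The count of 9 members called between genotypes became 24 with library size alone, where the median of all genes moved to 0.17, and 28 with limma on log2(TPM + 0.5), where it was 0.16. It was 19 with DESeq2, 22 with separate means for each line, and 0 both with reads summed per line and with limma-voom and a correlation within lines. All member counts in this paragraph take both directions, while its shares hold only genes called higher. Ccne1, whose estimate was negative in every alternative (-0.55 to -0.18), was called in 1 of 19, so 1 of these counts includes a member called lower. Size factors of the other kind (RLE) gave 9, no filter 8 and a stricter filter 10. With line and replicate number as a replicate block it was 19 and with replicate number alone as a replicate block 18, but the numbers were not taken as pairs. Same-numbered libraries deviated from their group means with correlations of 0.18, -0.029, -0.032 and 0.058, and for 3 of 8 the same number in the other genotype gave the highest correlation. Changes from replicate 1 to replicate 2 correlated at 0.12 to 0.3 between lines. All genes were called higher in 17.5% with library size alone, 15.7% with limma on TPM and 18.4% with separate line means, against 7.54%. The share was 11.9% with DESeq2, 7.58% with RLE, 3.73% without a filter and 7.76% with the stricter filter. It was 6.09% with line and replicate number as a block and 7.1% with replicate number alone. Reads summed per line gave 0.0694% and limma-voom within lines 0.879%.

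Leaving out 1 library gave 1 to 12 members between genotypes, 0 to 24 between the lines numbered 1, 1 to 16 between the lines numbered 2, 0 to 3 for the difference between line numbers, 0 to 4 between Fib-Ctrl lines and 0 to 2 between Fib-ΔZeb1 lines. Of all genes, these fits called higher 3.61% to 7.65% between genotypes, 5.3% to 16.6% in line 1 and 4.97% to 17.6% in line 2. The shares were 2.64% to 10.9% for the difference, 2.38% to 12.4% between Fib-Ctrl lines and 0.349% to 4.15% between Fib-ΔZeb1 lines. Member counts in this paragraph take both directions, while its shares hold only genes called higher. In the main fits over all genes, lower calls were about as many. They were 1794 beside 1757 higher in line 1, 1898 beside 1831 in line 2 and 979 beside 1003 for the difference. Library size alone gave 17 for line 1 and 18 for line 2, and DESeq2 gave 17 and 14, with 5 between Fib-Ctrl lines, 1 between Fib-ΔZeb1 lines and 28 between replicates. Library size alone called 22.2% of all genes higher in line 1 and 25.1% in line 2. With DESeq2 the shares were 15.2% and 15.4%, with 11.3% between Fib-Ctrl lines, 6.43% between Fib-ΔZeb1 lines and 2.35% between replicates. Without a filter the counts were 33, 23, 8, 16, 6 and 16 for line 1, line 2, their difference, the Fib-Ctrl lines, the Fib-ΔZeb1 lines and the replicates. The shares of all genes called higher were then 10.8%, 11.3%, 7.92%, 8.18%, 5.21% and 0.581%. The causes were not tested. Signs turned for 4 genes near 0. Rrm1 became 0.11 with library size alone, 0.10 with limma on TPM and ranged from -0.17 to 0.019 without 1 library. E2f1 became 0.16 and 0.11 and ranged from -0.14 to 0.15. Cenpf ranged from -0.056 to 0.22 and Top2a from -0.081 to 0.14 without 1 library. The share of G2/M promoters with a CHR-type motif was 47.1% in the shorter window, against 76.5%.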
